A study of Mus musculus with 8 samples.

Results

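The 9 genes described here encode enzymes and a scaffold that make and remove the phosphoinositides PI3P and PI(3,5)P2, the lipids that mark endosomes and lysosomes. They are the lipid kinase genes Pik3c3 and Pik3c2a, the genes of the PIKfyve complex (Pikfyve, Vac14 and Fig4), and the myotubularin phosphatase genes Mtm1, Mtmr2, Mtmr3 and Mtmr4. Members were found by gene symbol, and each of the 9 symbols was carried by 1 of the 22206 rows of the array table. Fig4 was selected on its measured difference between the groups, which had passed the threshold over the whole table (limma adjusted p = 0.0252), so its difference is a description here and not a test. The other members were chosen for their place in the pathway, with earlier results of these data known.

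RNA came from the left ventricle of male C57/BL6J mice aged 8 weeks that had received no treatment. The groups were 4 wildtype mice and 4 mice with cardiac-specific microRNA-100 overexpression, with 1 array per mouse. The promoter that drives the transgene, the number of founder lines and the level of overexpression are not stated in the labels. Values are deposited log2 signals per row, on which a difference of 1 is a doubling, and n is 4 mice in each group throughout. Each difference is the miR-100 mean minus the wild type mean, with the standard error (SE) or 95% confidence interval from limma. Litters were not given, and the p-values reflect the spread among these 8 samples, which may in part be technical.

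In cells, the kinase product of Pik3c3 turns phosphatidylinositol into PI3P on early endosomes and autophagosomes, and PIKfyve adds a further phosphate to give PI(3,5)P2 on late endosomes and lysosomes. PIKfyve works in a complex held together by the scaffold Vac14 and the phosphatase Fig4, which reverses the PIKfyve step and is also needed for full kinase activity. Myotubularins remove the phosphate at the D3 position from both lipids. Loss of Mtm1 causes a myopathy of skeletal muscle with centrally placed nuclei, and loss of Fig4 or Mtmr2 causes inherited peripheral neuropathy.

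Mtmr3 has been reported as a target of the miR-99/100 family. The mature sequences from RefSeq (GRCm38.p6) are shown, 5′ to 3′, because a shared seed means that a site for one microRNA of the family is a site for all. Capitals mark the seed, bases 2 to 8.
mmu-miR-100-5p: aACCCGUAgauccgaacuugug
mmu-miR-99a-5p: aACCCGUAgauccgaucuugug
mmu-miR-99b-5p: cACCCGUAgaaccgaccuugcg
These 3 were the only ones of 1738 mature mouse microRNAs in the table with this seed. They lie at chr9:41531437-41531458, chr16:77598940-77598961 and chr17:17830194-17830215, all on the plus strand. Over the 22 bases, miR-99a-5p differs from miR-100-5p at 1 position and miR-99b-5p at 4. The 7 bases that pair with the seed read UACGGGU. A search for them in the members' transcripts was not made here.

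The heart muscle identity and the cell mixture were checked first. No atrial markers were read, so the ventricular origin rests on the labels. All 9 cardiomyocyte markers were measured, with row means from 15.59 to 19.92. Mb, the highest of these, reached the table's ceiling of 19.93, where a change would not show. Atp2a2 lay close below it, with a mean of 19.85 in both groups. The list is therefore read for the tissue's identity alone. The list's mean signal ran from 18.96 to 19.02 in wild type arrays and from 18.95 to 19.00 in miR-100 arrays. The skeletal muscle list had a mean of 4.69 to 4.80 and 4.57 to 4.89, and 4 of 5 listed adipocyte genes had a mean of 3.75 to 4.03 and 3.93 to 4.26. Endothelial, fibroblast and macrophage lists (6 of 7, 6 of 7 and 7 of 8 genes measured) overlapped between the groups. The 7 smooth muscle and pericyte genes had list means of 9.32 to 9.55 in wild type and 9.30 to 9.72 in miR-100 arrays. Among them Acta2, smooth muscle actin, was at 12.86, 12.71, 12.72 and 12.61 in wild type and 13.74, 14.01, 14.66 and 12.94 in miR-100 hearts. Its difference was 1.11 (95% confidence interval 0.52 to 1.71, limma unadjusted p = 0.00135, adjusted p = 0.203). Groups did not overlap in this 1 of the 7 genes, beside 4.54% of all rows. The other 6 genes of this list had differences of 0.21 (Cspg4), 0.06 (Cnn1), 0.03 (Rgs5), -0.06 (Myh11), -0.14 (Pdgfrb) and -0.19 (Tagln), and the part of Acta2 or of this list in the members' values was not tested. Wild type replicate 2 stood apart on the first principal component, with a score of -38.2 where the other 3 of its group scored -13.0 to -3.49. miR-100 replicate 2 also stood apart, at 30.8 where the other 3 of its group scored 8.96 to 13.5. The component, with 21.7% of the variance, also separated the groups, since all wild type scores were negative and all miR-100 scores positive. Both arrays thus lay at its far ends, and values without either of them are given where they matter.

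Fig4 had the largest difference of the members. Its log2 signal was 10.49, 10.40, 10.62 and 10.72 in the wild type mice and 11.39, 11.60, 11.35 and 11.52 in the miR-100 mice. All 4 miR-100 values lay above all wild type values, and the gap between the groups exceeded the range within either of them. The means were 10.56 ± 0.14 and 11.47 ± 0.12 (SD), a difference of 0.91 (SE 0.14, 95% confidence interval 0.60 to 1.21), or 1.88-fold (1.52 to 2.32). In bulk tissue, a change in the number of cells of a type and a change in RNA per cell cannot be told apart. Fig4 was the 1 member of 9 called, beside 0.140% of all rows called in either direction and 0.0946% called higher and 0.0450% lower. Groups did not overlap in 1 member, beside 4.54% of all rows. Nothing is read from these counts, since that contrast chose the gene. Without single arrays the difference stayed between 0.86 and 0.96, while limma's adjusted p ran from 0.0385 to 0.0957. It passed in 1 of the 8 fits, the one without wild type replicate 4. The adjusted p without wild type replicates 1, 2 and 3 was 0.0736, 0.0750 and 0.0645, and without miR-100 replicates 1, 2, 3 and 4 it was 0.0793, 0.0741, 0.0764 and 0.0957.

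**Figure D1:**
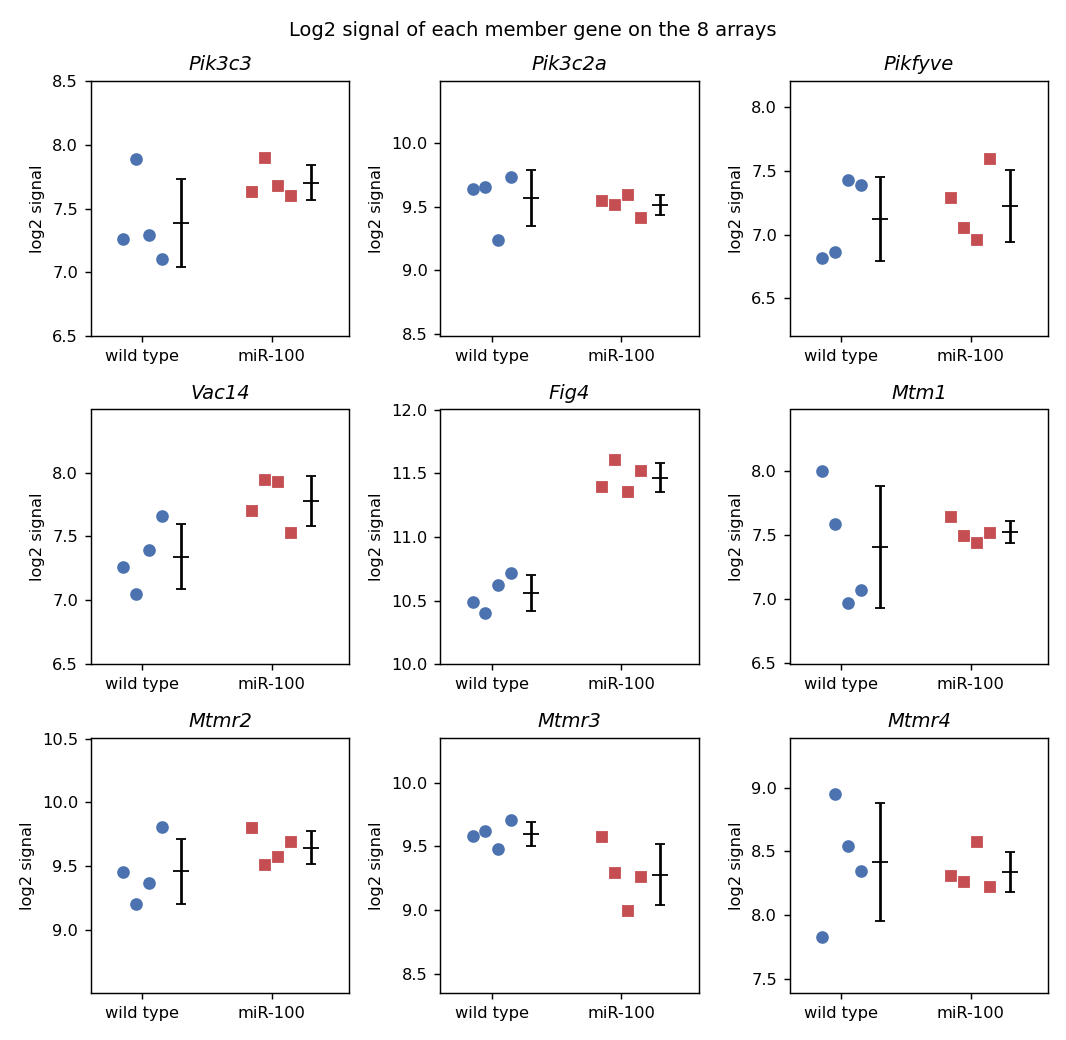
Log2 signal (vertical axes, each spanning 2 log2 units) of the 9 members in wild type (circles) and miR-100 overexpressing (squares) hearts, 1 point per mouse, with the mean and SD as bars. The groups are separate for Fig4, at 10.40 to 10.72 against 11.35 to 11.60, and overlap for each other member.

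Vac14, the scaffold that Fig4 binds, had signals of 7.26, 7.05, 7.39 and 7.66 in wild type and 7.70, 7.94, 7.93 and 7.53 in miR-100 hearts. Of the miR-100 mice, 3 lay above all wild type mice, and replicate 4 lay inside the wild type range. The difference was 0.44 (SE 0.17, 95% confidence interval 0.07 to 0.80), with an unadjusted p of 0.0220 and an adjusted p of 0.524 (limma), so it did not pass over the table. At an unadjusted p under 0.05, 3.55% of all rows were higher and 4.17% lower. Without miR-100 replicate 2 the difference was 0.38 (limma unadjusted p = 0.0628) and without wild type replicate 2 it was 0.34 (limma unadjusted p = 0.0653). Without miR-100 replicate 3 it was 0.38 (limma unadjusted p = 0.0602). The unadjusted p was thus above 0.05 in these fits, and it stayed under 0.05 when any other single array was left out.

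Pikfyve, the kinase of the complex, was at 6.82, 6.86, 7.43 and 7.39 in wild type and at 7.29, 7.05, 6.96 and 7.59 in miR-100 hearts. Both groups spread over about the same range and overlapped. The difference was 0.10 (95% confidence interval -0.32 to 0.52, limma adjusted p = 0.952), which leaves room for a change of up to 1.43-fold upward. The interval for Pikfyve lay below that of Fig4 (0.60 to 1.21). The difference between these 2 differences was not tested, since Fig4 was chosen for its own.

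Neither kinase gene that supplies PI3P was called. Pik3c3, the class III kinase, had 7.26, 7.89, 7.29 and 7.10 in wild type and 7.63, 7.90, 7.68 and 7.60 in miR-100 hearts. Wild type replicate 2 alone reached the miR-100 values, and the other 3 wild type mice lay below all of them. The difference was 0.32 (95% confidence interval -0.07 to 0.70, limma adjusted p = 0.720), and without wild type replicate 2 it was 0.49 (SE 0.14, unadjusted p = 0.00622, limma adjusted p = 0.356). Without miR-100 replicate 2 it was 0.25 (limma adjusted p = 0.890). Pik3c2a, a class II kinase that acts in endocytosis, had 9.64, 9.65, 9.24 and 9.73 in wild type and 9.54, 9.51, 9.59 and 9.41 in miR-100 hearts, with a difference of -0.05 (95% confidence interval -0.38 to 0.27, limma adjusted p = 0.970). All 4 miR-100 values fell inside the wild type range.

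Among the phosphatases, Mtmr3 had the lowest difference of the 9 members. Its signal was 9.58, 9.62, 9.48 and 9.71 in wild type and 9.57, 9.29, 8.99 and 9.26 in miR-100 hearts. Of the miR-100 mice, 3 lay below all wild type mice, and replicate 1 lay among them. The difference was -0.32 (SE 0.15, 95% confidence interval -0.65 to 0.01), with an unadjusted p of 0.0573 and an adjusted p of 0.675 (limma), and it did not pass. Its interval ran from 0.637-fold to 1.01-fold of the wild type level. Leaving out single arrays gave -0.42 without miR-100 replicate 1 and -0.22 without replicate 3, with no fit past the threshold.

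Mtm1, the founding myotubularin, had 8.00, 7.59, 6.97 and 7.07 in wild type and 7.64, 7.49, 7.44 and 7.52 in miR-100 hearts. The wild type mice spread over 1.03 log2 units and the miR-100 mice over 0.20, inside the wild type range. The difference was 0.12 (95% confidence interval -0.33 to 0.56, limma adjusted p = 0.946). Mtmr2, which acts on endosomes in Schwann cells and neurons, had 9.45, 9.20, 9.37 and 9.81 against 9.80, 9.51, 9.57 and 9.69, with a difference of 0.19 (95% confidence interval -0.16 to 0.53, limma adjusted p = 0.865). Its miR-100 values also lay inside the wild type range.

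Mtmr4, a myotubularin with a FYVE domain like that of Mtmr3, had 7.83, 8.95, 8.54 and 8.35 in wild type and 8.31, 8.26, 8.57 and 8.22 in miR-100 hearts. The highest and the lowest of these 8 values were both wild type. The difference was -0.08 (95% confidence interval -0.53 to 0.37, limma adjusted p = 0.966). It was 0.10 without wild type replicate 2, so its sign rests on that array. Of the 8 members other than Fig4, 5 had differences above 0 and 3 below, with a median of 0.11, and 0 were called by limma, with 1 (Vac14) at an unadjusted p under 0.05. Over all rows, 46.9% of differences were above 0, the median was -0.015, and 7.73% had an unadjusted p under 0.05.

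**Figure D2:**
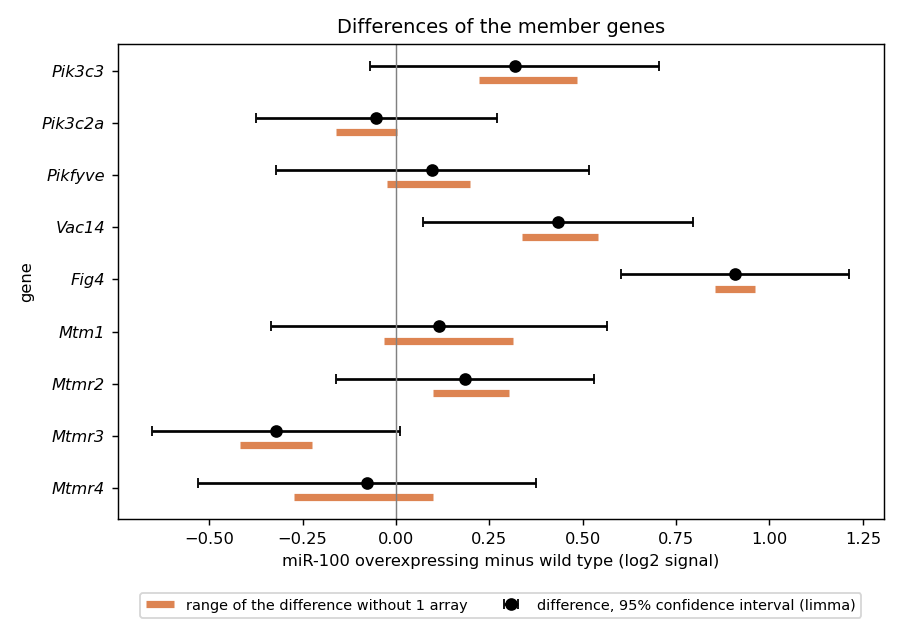
Difference between miR-100 overexpressing and wild type hearts (log2 signal, horizontal axis) for each member, with the 95% confidence interval (black) and the range of the difference when single arrays were left out (orange). The intervals of Fig4 (0.60 to 1.21) and Vac14 (0.07 to 0.80) lie above 0, and the 7 others include 0.

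The wider phosphoinositide network was described with 6 lists of other kinases, phosphatases and partners. They held 59 genes, of which 57 were measured, and 0 were called by limma. At an unadjusted p under 0.05, 3 were higher and 2 lower, or 5 of 57 beside 7.73% of all rows. The median difference was 0.06, with 32 above 0 and 25 below.

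The 10 other myotubularin genes had differences from -0.37 to 0.37 with a median of 0.001, 5 above 0 and 5 below, and 0 at an unadjusted p under 0.05. Mtmr14, a muscle-enriched phosphatase of the same lipids, had a difference of 0.37 (95% confidence interval -0.02 to 0.76, limma adjusted p = 0.682), and Mtmr10 had -0.37 (-0.89 to 0.16, limma adjusted p = 0.795). The 7 partners of the class III kinase included 5 with differences above 0. Rubcn, which restrains that kinase in autophagy, had 0.43 (95% confidence interval -0.02 to 0.87) and Pik3r4, its regulatory subunit, 0.21 (-0.23 to 0.64), and neither passed. The other class II kinase genes, Pik3c2b and Pik3c2g, differed by -0.03 and 0.06.

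Of 15 measured other phosphatase genes, 1 was higher and 1 lower at an unadjusted p under 0.05 (7.73% of all rows in either direction), and 0 were called. Synj2, a synaptojanin with a Sac domain as in Fig4, was at 11.22, 11.15, 10.90 and 11.00 in wild type and 11.53, 11.62, 11.45 and 11.66 in miR-100 hearts. Sacm1l, the Sac phosphatase of the endoplasmic reticulum and Golgi, was at 12.34, 12.39, 12.32 and 12.11 in wild type and 11.89, 11.89, 11.59 and 11.84 in miR-100 hearts. The groups were separate for both genes, in opposite directions, with differences of 0.50 (SE 0.14, limma adjusted p = 0.306) and -0.49 (SE 0.14, limma adjusted p = 0.330). Groups did not overlap in these 2 of the 15 genes, beside 4.54% of all rows.

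Of the 14 genes for PI4-, PIP4- and PIP5-kinases and for the synthesis and transfer of phosphatidylinositol, 2 were higher and 1 lower at an unadjusted p under 0.05, and 0 were called. Over all rows, 3.55% were higher and 4.17% lower at that p. Groups did not overlap in 1 of the 14 genes, beside 4.54% of all rows. Pip5k1c, a kinase that makes PI(4,5)P2 at the plasma membrane, was at 7.32, 7.0, 6.59 and 6.90 in wild type and 7.63, 7.55, 7.38 and 8.09 in miR-100 hearts, with no overlap. Its difference was 0.71 (95% confidence interval 0.29 to 1.13, limma adjusted p = 0.277). Its relative Pip5k1a differed by 0.37 (limma adjusted p = 0.595), with 3 of 4 miR-100 mice above all wild type mice. Among 9 class I kinase subunit genes 3 had differences above 0 and 0 had an unadjusted p under 0.05. Pik3cd, the leukocyte catalytic subunit, had -0.41 (95% confidence interval -0.86 to 0.05) and Pik3ca 0.15 (-0.14 to 0.43).

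**Figure D3:**
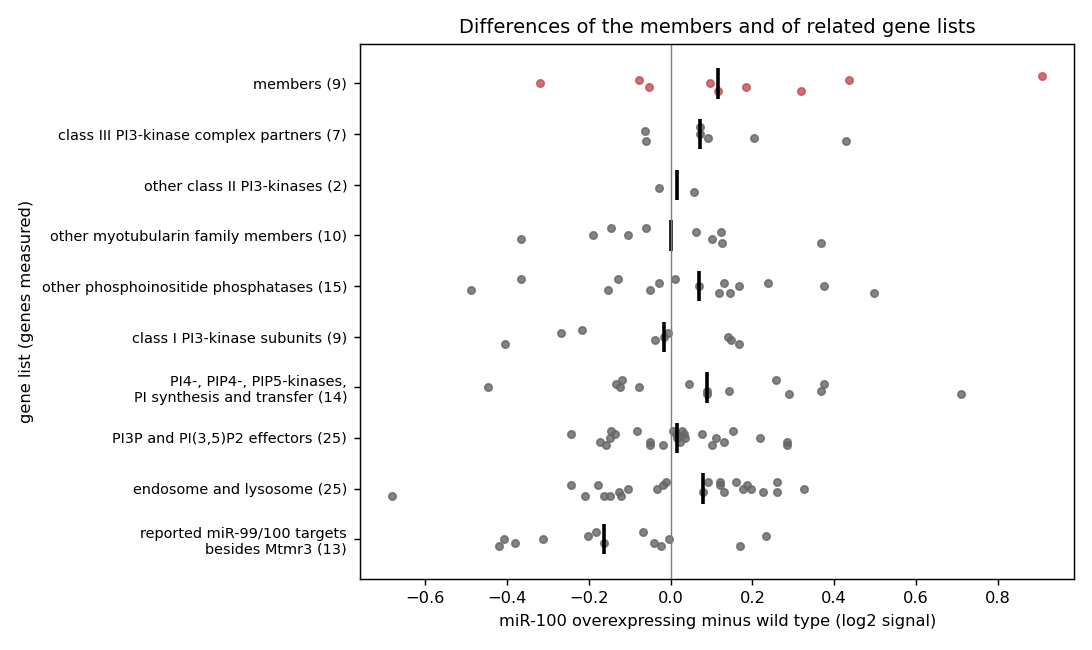
Difference between miR-100 overexpressing and wild type hearts (log2 signal, horizontal axis) for the members (red) and each measured gene of 9 related lists (grey), with the list's median as a black line. Fig4 (0.91), Pip5k1c (0.71) and Scarb2 (-0.68) lie farthest from 0.

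Genes for proteins that bind these lipids, and genes of the compartments they mark, were measured as well. The 25 measured effectors of PI3P and PI(3,5)P2 ranged from -0.24 to 0.29, with a median of 0.015, and 0 had an unadjusted p under 0.05. Zfyve16, an endosomal FYVE protein, and Tpcn1, an endolysosomal channel that PI(3,5)P2 opens, both had 0.29 (limma adjusted p = 0.730 and 0.768). Of 25 endosome and lysosome genes 0 were called and 1 was lower at an unadjusted p under 0.05, beside 4.17% of all rows. Groups did not overlap in 1 of the 25, beside 4.54% of all rows. Both counts refer to Scarb2, which carries beta-glucocerebrosidase to lysosomes. It was at 13.04, 13.19, 13.33 and 12.88 in wild type and 12.45, 12.25, 12.66 and 12.36 in miR-100 hearts, with no overlap and a difference of -0.68 (95% confidence interval -1.01 to -0.35, limma adjusted p = 0.175). With an intensity trend in the moderation Scarb2 passed (limma adjusted p = 0.0371), in a fit that called 65 rows where the main fit called 31. This was the 1 pass among the 8 alternatives that kept all arrays. Without single arrays Scarb2 passed in 0 of 8 fits (limma adjusted p from 0.146 to 0.370). Gaa, the lysosomal acid glucosidase, differed by 0.26 (limma adjusted p = 0.709).

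Mtmr3 was set beside 13 other measured genes, of 14 listed, reported as targets of the miR-99/100 family. This list, too, was chosen with earlier results of these data known, so its counts are a description. Differences were below 0 for 11 of them and above 0 for 2, with a median of -0.16, beside 46.9% above 0 and a median of -0.015 over all rows. By limma 2 were lower at an unadjusted p under 0.05 (Smarca5 and Trib2), beside 4.17% of all rows, and 0 were called. Groups did not overlap in 1 of the 13 (Smarca5), beside 4.54% of all rows. Trib2, a pseudokinase, differed by -0.38 (95% confidence interval -0.74 to -0.02, limma adjusted p = 0.618). The -0.32 of Mtmr3 lay within the list's range of -0.42 to 0.23.

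The genes next to Fig4 on chromosome 10 were measured on the same arrays. The 5 measured genes on each side had differences from -0.49 (Ddo) to 0.24 (Zbtb24), with a median of 0.035, 5 above 0 and 5 below. By limma 0 were called or had an unadjusted p under 0.05, beside 0.140% and 7.73% of all rows. With shares this low, a count of 0 among 10 genes says little. On one side the remaining genes were Mettl24 (-0.33), Cdc40 (-0.01), Wasf1 (0.08) and Gpr6 (-0.11), and on the other Mical1 (0.20), Smpd2 (0.11), Ppil6 (-0.06) and Cd164 (0.08). Gpr6, Wasf1 and Mettl24 were dim, at percentiles 1.63, 10.7 and 28.3 of all row means, where a change could go unseen. The 1 gene that overlaps Fig4 in the RefSeq table (GRCm38.p6), Gm25526, had no row.

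**Figure D4:**
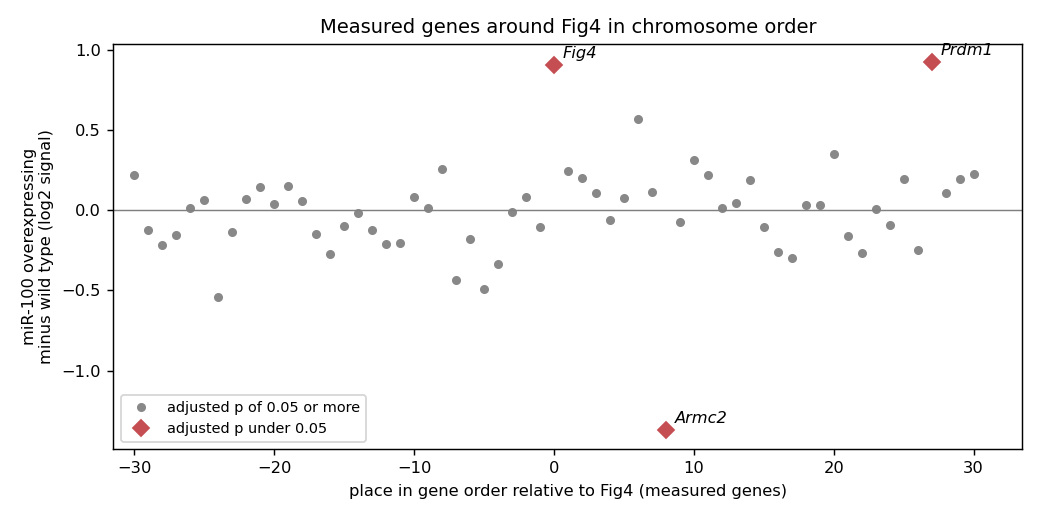
Difference between miR-100 overexpressing and wild type hearts (log2 signal, vertical axis) for the 60 measured genes within 30 places of Fig4 in gene order (horizontal axis), with rows called by limma as diamonds. The 5 genes on each side of Fig4 lie between -0.49 and 0.24. Armc2 (-1.37, 8 places away) and Prdm1 (0.92, 27 places away) were called, beside 0.140% of all rows.

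The genes whose signal followed Fig4 most closely from mouse to mouse, after the mean of each group was subtracted, were Sfswap, Suclg1, Gorasp1, Zfp790 and Rcan1. Their Pearson coefficients ran from 0.961 to 0.980 over the 8 arrays. They were the highest of 9993 brighter rows with a symbol, so values this high are a description of these 8 arrays. Group differences for the first 4 were between -0.14 and 0.09, and that of Rcan1, a calcineurin inhibitor, was 0.58 (limma adjusted p = 0.405).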

How the data were processed

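TriPure was used to extract RNA and the Affymetrix WT Plus kit to label it, per the labels' protocols. The deposited values are log2 signals. The submitters' processing notes name Transcriptome Analysis Console 4.0, and how it summarized and normalized the arrays, and on which build, is not stated in them. Column medians of 5.70 to 5.74 show a common scale. No value was transformed, filtered or imputed. limma 3.58.1 (R 4.3.3; lmFit and eBayes without covariates) was fitted to all 22206 rows, with Benjamini-Hochberg adjustment over the whole table and a threshold of 0.05. The code of the fit was run on simulated data, which checks the code and not the differences of the members. The number of arrays limits precision.

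Symbols came from the platform annotation. Members and lists were chosen with earlier results of these data known. Named are all members, from each list the genes called and the 2 with the lowest unadjusted p, the 5 measured neighbours on each side of Fig4 and the 5 rows most like it. Outside the members, the brightest row stood for a gene. Other genes were named after their values were seen. Alternatives were leaving out each array, a replicate block, array weights, moderation with an intensity trend or robust to outliers, median centring, quantile normalization, and keeping rows above the 25th or the 50th percentile of row means.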

Additional observations from a re-analysis of the deposited data

Results flagged for a closer look

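Among the groups of 4 values behind the named genes, 4 had a value set far from the other 3, of 84 groups tested, and chance flags about 1 in 20. None belonged to a member. For Zbtb24, next to Fig4, wild type replicate 3 was at 5.76 and the others at 4.97 to 5.05. For the effector gene Tpcn1, wild type replicate 1 was at 6.99 against 7.58 to 7.67. For Sacm1l, miR-100 overexpressing replicate 3 was at 11.59 against 11.84 to 11.89, and for Pik3c2b replicate 2 of that group was at 5.63 against 5.15 to 5.18.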

How the results depend on the processing

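The difference of Fig4 kept its direction in all 16 alternatives and its limma adjusted p stayed under 0.05 in 8 of them. The direction could not change without single arrays, since Fig4 was chosen for this difference and its groups did not overlap. The intensity trend, robust moderation, block and percentile filters alter only the SE and p-values. With the replicate number as a block (replicate block) the difference of Fig4 was thus again 0.91, with a limma adjusted p of 0.0881, and 0 members were called. Deviations of same-numbered arrays correlated between -0.060 and 0.066, and those of differently numbered arrays between -0.061 and 0.071. Such values show no shared signal by number, but they cannot show whether the numbers pair the mice. Without single arrays Fig4 ranged from 0.86 to 0.96, with 0 to 1 members called. The number of rows called was 65 with an intensity trend and 11 to 27 without single arrays. Small differences changed sign without single arrays: Pik3c2a ranged from -0.16 to 0.0025, Pikfyve from -0.025 to 0.20, Mtm1 from -0.031 to 0.31, Mtmr4 from -0.27 to 0.10, Cdc40 from -0.098 to 0.14, Wasf1 from -0.065 to 0.19, Smpd2 from -0.018 to 0.18, Ppil6 from -0.23 to 0.16, Pik3c2g from -0.083 to 0.15 and Pik3c2b from -0.14 to 0.083. Pik3c2b was 0.017 with array weights. List medians without single arrays ranged from -0.12 to 0.017 for class I subunits, from -0.0058 to 0.11 for endosome and lysosome genes and from -0.15 to -0.096 for reported targets. Among the brighter rows (50th percentile filter) the medians were 0.14 for the PI4-, PIP4- and PIP5-kinase list and -0.010 for endosome and lysosome genes, where fewer genes were tested. With an intensity trend 1 endosome and lysosome gene was called. The causes were not tested.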

Other observations

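Chromosome 10, which carries Fig4, held 6 of the 28 named genes called, or 21.4% of them, and 4.71% of the measured genes with a place in the RefSeq table. These were Cnksr3, Fig4, Armc2, Prdm1, Hk1 and Hcn2. Armc2 (difference -1.37) was the 8th measured gene beyond Fig4 and Prdm1 (0.92) the 27th, on the same side, while the other 3 lay 112 to 264 measured genes away. Of the 60 measured genes within 30 places of Fig4, 2 were called, beside 0.140% of all rows. The median difference over all 60 was 0.016. The chromosome and the window were chosen after the values were seen, and the chance of such a grouping was not tested.

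The signals of 8 of the 9 members had a larger SD in wild type than in miR-100 hearts, Mtmr3 being the exception, beside 57.7% of all rows. Without wild type replicate 2 the count was 6 of 9, beside 50% of all rows.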
